A study of Homo sapiens with 6 samples.

Results

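The isocitrate dehydrogenases and citrate metabolism genes described here are 9 genes, namely IDH1, IDH2, IDH3A, IDH3B, IDH3G, ACO1, CS, ACSS1 and SLC25A1, of the 56303 genes in the table of counts. They were picked by symbol and were chosen by their difference between libraries labelled siFBXL6 and libraries labelled siNC in these same counts, so each member's difference is given as a description. The intervals and calls given for members come from the model fitted to all genes, are not independent of that choice and support nothing. RNA was sequenced from T24, an established human bladder cancer cell line, to ask which transcripts change when FBXL6, an F-box protein of ubiquitin ligase complexes, is depleted by siRNA. The labels give 3 libraries the genotype WT with a negative control siRNA (siNC) and 3 libraries the genotype FBXL6 knockdown with an siRNA against FBXL6 (siFBXL6), numbered 1 to 3 in each group. All 6 shared the parental line, the growth medium and the same labelled batch, and by the study's methods RNA was taken after 48 h of transfection. Each library was made from 2 μg of RNA with a stranded mRNA kit. The numbers were read as replicates, although siRNAs against FBXL6 are also numbered in this way, so that siFBXL6-1 and siFBXL6-2 may stand for an siRNA or a replicate. Whether the libraries labelled siFBXL6 share a single siRNA is not settled by the labels. Nothing in the labels says that the 3 libraries of a group came from separate cultures, so p-values measure the spread between these libraries, which may be technical.

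Isocitrate dehydrogenases oxidize isocitrate to 2-oxoglutarate, and they fall into NADP-dependent enzymes, cytosolic and peroxisomal IDH1 and mitochondrial IDH2, and the NAD-dependent mitochondrial IDH3 of the tricarboxylic acid (TCA) cycle, which is built from the subunits encoded by IDH3A, IDH3B and IDH3G. Citrate made by citrate synthase (CS) can be isomerized to isocitrate by aconitases or exported by the citrate carrier SLC25A1, after which the cytosol uses it for acetyl-CoA and lipid synthesis. IDH1 and IDH2 supply NADPH, can run in reverse to make citrate from glutamine-derived carbon in tumour cells, and are known in other tumours for mutant forms that make 2-hydroxyglutarate.

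The libraries labelled siNC held 58646515, 60967902 and 56814946 counts, and those labelled siFBXL6 held 60968158, 60898556 and 60754015. The 9 members together took between 24078 and 27065 counts of a library. At this depth the least abundant member, ACSS1, still had 136 counts in its lowest library. Libraries of 1 group differed by more than counting noise, with a chi-square statistic per degree of freedom between 2.85 and 6.20 for the 6 pairs within groups. No library was thus a sequencing rerun of another. The statistic cannot tell separate cultures from libraries made repeatedly from 1 RNA, since it allows for counting noise only.

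FBXL6, the targeted gene, had counts of 362, 414 and 398 under the siNC label and of 398, 344 and 350 under the siFBXL6 label. As CPM (counts relative to the TMM-scaled library size), its level was 6.61 ± 0.380 against 6.03 ± 0.483 CPM (SD, n = 3 each), and the groups overlapped. The log2 fold change of siFBXL6 over siNC was -0.13 (SE 0.088, 95% interval -0.31 to 0.046, adjusted p = 0.247, edgeR), and an exact two-sided permutation test gave p = 0.2 where 3 libraries against 3 cannot go below 0.1. The transcript therefore did not set the labelled groups apart, and every direction below is between libraries as labelled. ACTB, the β-actin gene, had a log2 fold change of 0.00020 (SE 0.027, adjusted p = 0.996), a value whose sign changed with the scaling.

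Marker lists were used to describe the cells, and whether their levels match the labelled line T24 was not tested. Of 15 urothelial and epithelial markers 12 had enough counts to be tested, and the most abundant was the keratin gene KRT7 with a mean of 1011 CPM, while the uroplakin gene UPK1A had no count in any library and UPK1B and UPK3A were below 0.1 CPM in both group means. Uroplakins mark the differentiated surface cells of the urothelium. The summed level of this list was 4085, 3956 and 4069 CPM in the libraries labelled siNC and 3631, 3620 and 3635 CPM in those labelled siFBXL6, so the sum was lower in all 3 of the latter. Its genes did not move together, since 7 were called lower and 2 higher, CDH1 (118 to 132 CPM) and TP63 (134 to 152 CPM), while KRT18 was at 378 CPM in both group means. Among 5 mesenchymal genes FN1 was the most abundant (2305 CPM), and their sum, mostly FN1, was 2758, 2677 and 2618 CPM against 2367, 2405 and 2420 CPM. Of these 5 genes 2 were called lower and 1 higher, VIM, which went from 15.6 to 25.4 CPM in the group means. Fibroblast markers, nearly all of it COL1A1, summed to 38.1, 39.0 and 37.3 CPM against 34.9, 34.2 and 33.1 CPM, lower in all 3 libraries labelled siFBXL6. Endothelial markers summed to 1.85, 1.59 and 1.72 CPM against 2.38, 2.15 and 3.20 CPM, higher in all 3, with PECAM1 at 0.573 and 1.39 CPM in the group means. The 5 immune markers summed to 7.49, 8.06 and 7.77 CPM against 20.5, 18.6 and 19.9 CPM, which was mostly CD68, a lysosomal protein gene at 6.70 and 18.8 CPM in the group means, while the T cell gene CD3E was at or near 0. All 6 libraries are labelled as 1 cultured line, so these sums were not read as numbers of fibroblasts, endothelial cells or immune cells. In bulk RNA a shift in every cell and a shift in a part of the cells cannot be told apart. The part of these marker shifts in the members' differences was not tested.

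All 9 members passed the filter on low counts, which kept 21298 genes. Of the 9, 8 were called (adjusted p under 0.05 over all genes tested), beside 40.2% of all genes tested. Of these, 3 were higher in the libraries labelled siFBXL6 and 5 were lower, beside 20.5% and 19.8% of all genes tested. The balance over all genes turned with the scaling. It was 4360 higher and 4209 lower in the main fit, and 3930 higher and 4777 lower with library size alone. The groups did not overlap for 8 members, beside 48.2% of all genes, and 2 members, IDH1 and ACSS1, were called with a log2 fold change of at least 1 in size, beside 2.92%. Since the members were chosen on this contrast, nothing is read from these counts. The member not called was ACO1, and CS lost its call under 9 of 12 processing alternatives. The median log2 fold change of the 9 members was -0.11, and that of all genes tested was -0.0071.

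**Figure D1:**
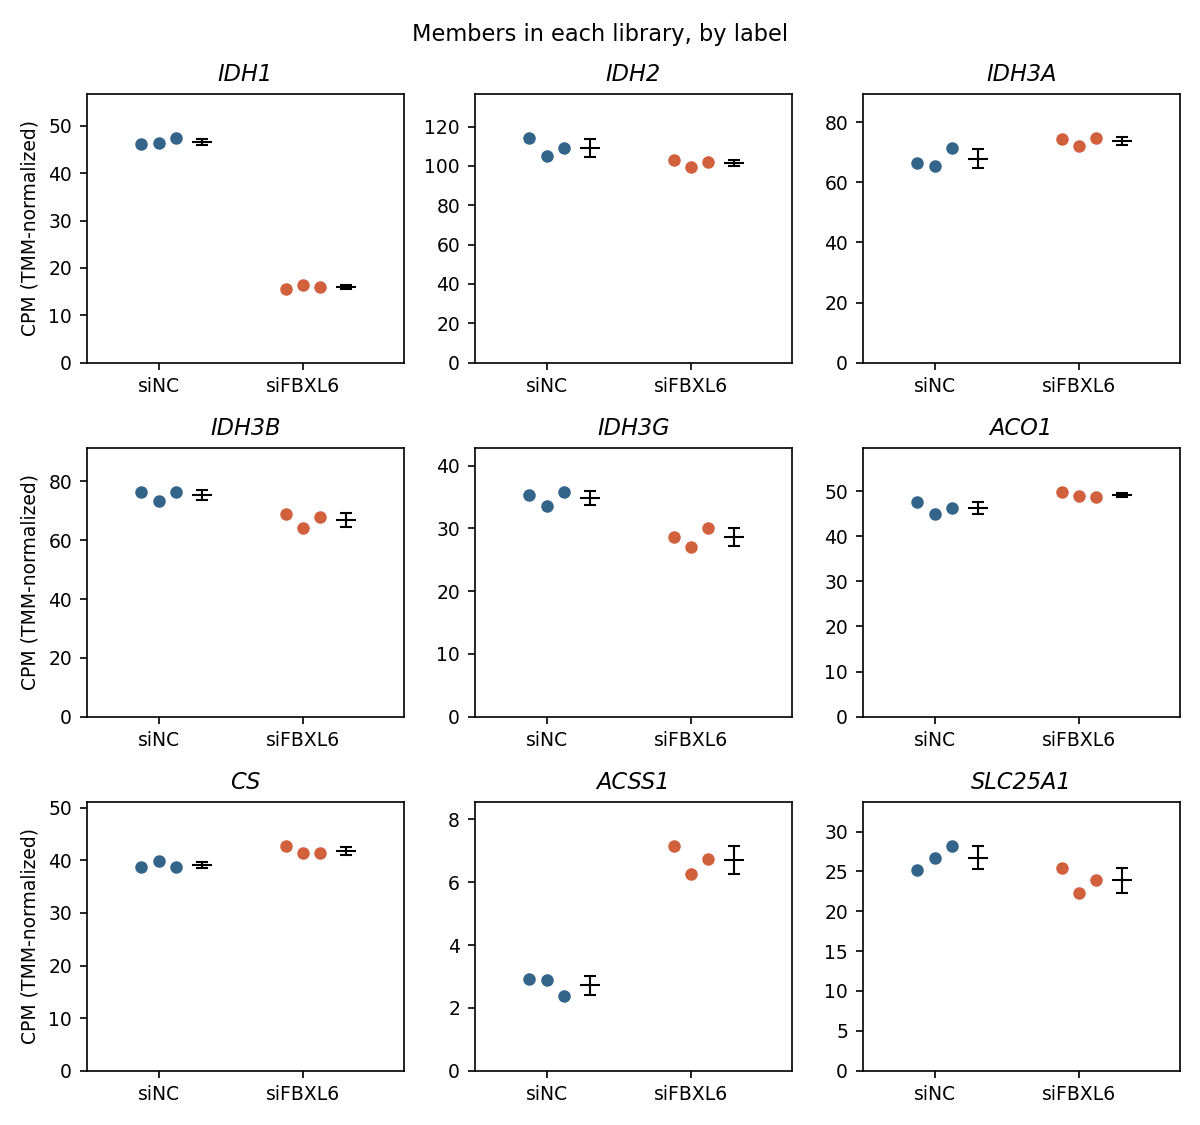
TMM-normalized CPM (y axis, from 0) of each of the 9 members in the 3 libraries labelled siNC (blue) and the 3 labelled siFBXL6 (orange). Bars beside the points are mean ± SD (n = 3). IDH1 lay between 46.2 and 47.4 CPM in the libraries labelled siNC and between 15.5 and 16.4 CPM in those labelled siFBXL6, while ACSS1 was higher in the latter and the other 7 members shifted by less than 20% of their level.

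IDH1 (chromosome 2 of GRCh38, 208236227 to 208266074, minus strand) makes NADPH in the cytosol and peroxisomes, and it had the largest difference of the 9. Its counts were 2703, 2862 and 2719 under the siNC label and 939, 993 and 965 under the siFBXL6 label. In CPM this was 46.2, 46.3 and 47.4 against 15.5, 16.4 and 16.0. All 3 libraries labelled siFBXL6 were thus far below all 3 labelled siNC, and the range within a group was small beside the gap between the groups. The level was 46.6 ± 0.625 CPM against 16.0 ± 0.457 CPM (SD, n = 3 each), which is 2.92-fold higher in the libraries labelled siNC, with a log2 fold change of -1.54 (SE 0.045, 95% interval -1.63 to -1.45). Of the 4209 genes called lower across the table, 57 had a lower log2 fold change than IDH1.

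The promoter of IDH1 is shown because this gene held the largest difference. The RefSeq table (GRCh38.p14) gives 300 bases, from 250 before to 50 after the start of its canonical transcript, at chr2:208255022-208255321 on the minus strand. Capitals mark GC boxes (GGGCGG, or CCGCCC on the other strand) and CCAAT boxes (CCAAT, or ATTGG on the other strand).
IDH1: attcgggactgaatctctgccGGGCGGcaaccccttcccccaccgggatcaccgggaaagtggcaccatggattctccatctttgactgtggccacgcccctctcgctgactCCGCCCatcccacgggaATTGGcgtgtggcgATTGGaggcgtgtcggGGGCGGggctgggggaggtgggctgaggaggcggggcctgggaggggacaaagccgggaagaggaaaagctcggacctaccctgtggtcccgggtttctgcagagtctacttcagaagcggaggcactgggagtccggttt
This window held 3 GC boxes, whose first bases lie at -229, -138 and -91 from the start, and 2 CCAAT boxes at -121 and -107, both read on the opposite strand. Its GC content was 64.7%, and the median of the 35116 promoters of this length was 58.7%. A GC box was found in 45.0% of those promoters and a CCAAT box in 34.6%. A match is a description of the letters and not a bound site. The antisense gene IDH1-AS1 (208255247 to 208256181, plus strand) begins inside the same window.

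IDH2, which catalyses the same NADP-dependent reaction in mitochondria, was much closer between the groups. It lies on chromosome 15 (90083045 to 90102504, minus strand) and was at 114, 105 and 109 CPM in the libraries labelled siNC and 103, 99.6 and 102 CPM in those labelled siFBXL6. The lowest siNC library (105 CPM) lay just above the highest siFBXL6 library (103 CPM). Its level was 109 ± 4.60 against 101 ± 1.68 CPM (SD, n = 3 each), a change of -7.16% and a log2 fold change of -0.11 (SE 0.033, 95% interval -0.17 to -0.040). The call on IDH2 was lost without siFBXL6 replicate 2 (log2 fold change -0.093). Of the NADP-dependent enzymes, IDH1 thus had the larger difference.

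The IDH3 genes encode the catalytic α subunit (IDH3A) and the β and γ subunits (IDH3B and IDH3G) of a single mitochondrial complex, and their differences did not share a direction. IDH3A (chromosome 15, 78131498 to 78171949, plus strand) was at 66.5, 65.5 and 71.5 CPM in the libraries labelled siNC and 74.5, 72.2 and 74.7 CPM in those labelled siFBXL6. IDH3B (chromosome 20, 2658395 to 2664219, minus strand) was at 76.3, 73.4 and 76.3 CPM against 69.0, 64.3 and 67.7 CPM. IDH3G (chromosome X, 153785766 to 153794523, minus strand) was at 35.4, 33.6 and 35.8 CPM against 28.7, 27.1 and 30.1 CPM. The transcript of the α subunit was higher in all 3 libraries labelled siFBXL6, and those of the β and γ subunits were lower in all 3. The log2 fold changes were 0.12 (SE 0.035) for IDH3A, -0.17 (SE 0.034) for IDH3B and -0.29 (SE 0.045) for IDH3G, with 95% intervals of 0.050 to 0.19, -0.24 to -0.099 and -0.38 to -0.19. Without siNC replicate 2 the log2 fold change of IDH3A was 0.097 and its call was lost.

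CS condenses acetyl-CoA with oxaloacetate to citrate at the entry of the TCA cycle. It lies on chromosome 12 (56271699 to 56300392, minus strand) and was at 38.7, 39.9 and 38.8 CPM in the libraries labelled siNC and 42.7, 41.4 and 41.4 CPM in those labelled siFBXL6. The groups did not overlap, and the log2 fold change was 0.096 (SE 0.039, 95% interval 0.017 to 0.17). ACO1 is the cytosolic aconitase, which turns into an iron regulatory protein when its iron-sulfur cluster is lost. It lies on chromosome 9 (32384603 to 32454769, plus strand) and was at 47.6, 44.9 and 46.3 CPM against 49.7, 49.0 and 48.7 CPM, again without overlap, with a log2 fold change of 0.088 (SE 0.037, 95% interval 0.013 to 0.16). Both were thus slightly above the siNC level, by 6.88% for CS and 6.29% for ACO1. The call on ACO1, absent here, was made without siNC replicate 1 (log2 fold change 0.11) and when 10 counts were required in every library (0.089). The call on CS was lost without siNC replicates 1 or 3 (0.088 and 0.089) and without siFBXL6 replicates 1, 2 or 3 (0.081, 0.10 and 0.10).

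SLC25A1 exports citrate from mitochondria in exchange for malate. It lies on chromosome 22 (19175575 to 19178830, minus strand) and was at 25.2, 26.7 and 28.1 CPM in the libraries labelled siNC and 25.4, 22.3 and 23.9 CPM in those labelled siFBXL6. It was the only member whose groups overlapped, since siFBXL6 replicate 1 lay above siNC replicate 1. The log2 fold change was -0.16 (SE 0.052, 95% interval -0.27 to -0.055), and its call was lost without siNC replicate 3 (-0.12) and without siFBXL6 replicate 2 (-0.11). The table has 5 rows named as SLC25A1 pseudogenes, which together held at most 9 counts in a library.

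ACSS1, the mitochondrial enzyme that makes acetyl-CoA from acetate, was the least abundant member and the one that was most raised in the libraries labelled siFBXL6. It lies on chromosome 20 (25006230 to 25058980, minus strand), with counts of 170, 178 and 136 under the siNC label and 432, 378 and 406 under the siFBXL6 label. In CPM this was 2.91, 2.88 and 2.37 against 7.14, 6.26 and 6.74, so the lowest siFBXL6 library was well above the highest siNC library. The level was 2.72 ± 0.304 against 6.71 ± 0.443 CPM (SD, n = 3 each), a 2.47-fold difference with a log2 fold change of 1.30 (SE 0.11, 95% interval 1.09 to 1.52). Of the 4360 genes called higher, 215 had a higher log2 fold change than ACSS1. Its cytosolic counterpart ACSS2 rose much less, from 18.2 ± 0.646 to 20.8 ± 0.703 CPM (log2 fold change 0.19, SE 0.053, adjusted p = 0.00385), and ACSS3 was below 0.5 CPM in every library.

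The promoter of ACSS1 is shown as that of the member with the largest difference in the direction opposite to IDH1. It lies at chr20:25058090-25058389 on the minus strand of GRCh38.p14, with 250 bases before and 50 after the start of the canonical transcript, and capitals mark GC boxes.
ACSS1: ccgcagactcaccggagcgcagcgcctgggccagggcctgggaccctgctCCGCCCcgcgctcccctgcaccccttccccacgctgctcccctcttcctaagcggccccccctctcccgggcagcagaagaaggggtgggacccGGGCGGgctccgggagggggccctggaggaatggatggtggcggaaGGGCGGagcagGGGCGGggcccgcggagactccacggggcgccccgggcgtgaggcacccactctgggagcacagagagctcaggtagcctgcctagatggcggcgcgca
Its GC content was 75% and it held 4 GC boxes, with first bases at -200, -106, -60 and -49 from the start. No CCAAT box was found in these letters, unlike in the IDH1 window.

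**Figure D2:**
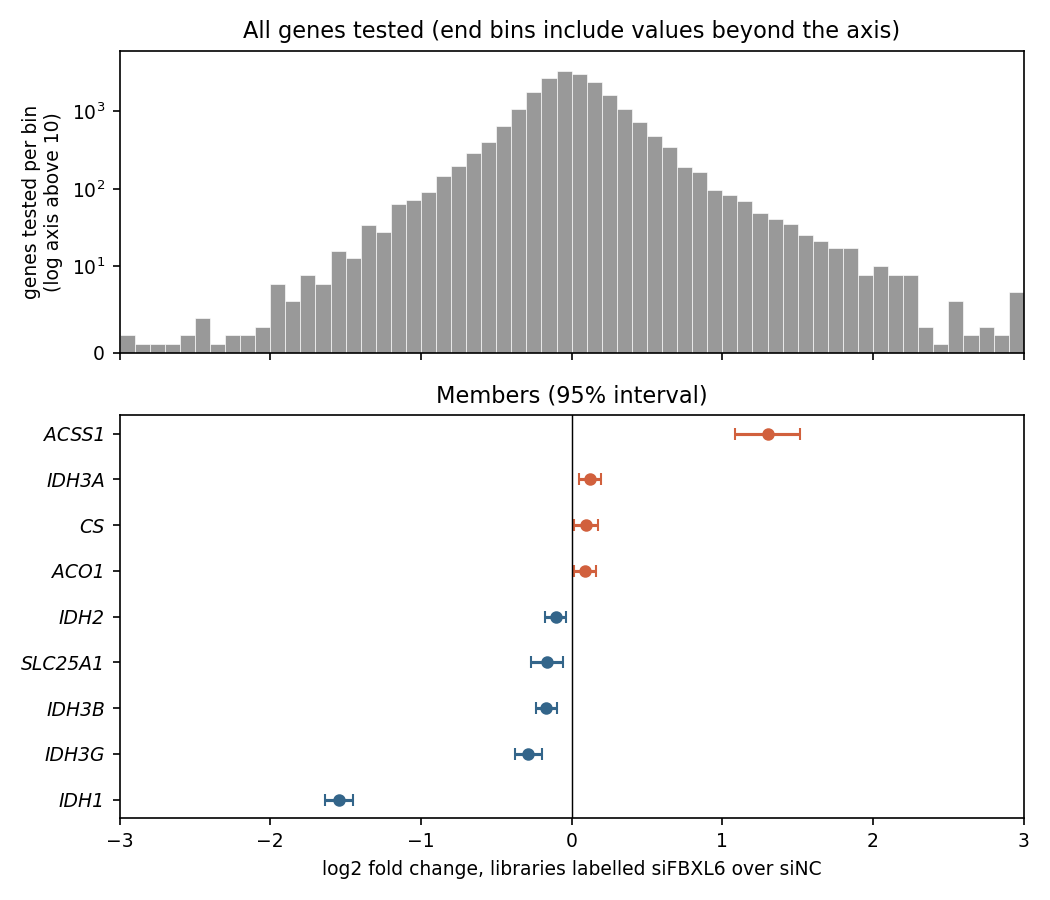
Upper panel, number of genes tested (y axis, log scale above 10) by log2 fold change of libraries labelled siFBXL6 over siNC (x axis, bins of 0.1). Lower panel, the log2 fold change of each member with its 95% interval. IDH1 at -1.54 and ACSS1 at 1.30 lie in the tails of the distribution, and the other 7 members lie between -0.29 and 0.12.

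All 9 members had an entry in the RefSeq promoter table, and for 8 of them a window began at the start of the canonical transcript, the exception being IDH2. Across these 8 windows 7 motifs were searched on both strands. The GC box was in 6 (IDH1, ACO1, CS, IDH3A, ACSS1 and SLC25A1) and the CCAAT box in 4 (IDH1, CS, SLC25A1 and IDH3G). The core of the motif of nuclear respiratory factor 1 (NRF1 core, TGCGCA), a regulator of genes for mitochondrial proteins, was in 3 windows, those of IDH3A, IDH3B and IDH3G, and in 8.24% of all promoters of this length. The E-box (CACGTG), the AP-1 site (TGANTCA), the CRE (TGACGTCA) and the TATA box (TATAAA) were in 0 of the 8 windows and in 7.26%, 7.71%, 1.85% and 11.5% of all promoters. No base of the 8 windows belonged to matches of more than 1 motif. The stretches around the NRF1 core are set side by side because they are what the windows of the IDH3 subunits had in common, with the core in capitals and 15 bases on each side. They lie at chr15:78149342-78149377 (plus strand), chr20:2664339-2664374 (minus strand) and chrX:153794412-153794447 (minus strand), and the core begins at -5, -143 and -57 from the respective start.
IDH3A: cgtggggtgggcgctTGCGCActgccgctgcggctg
IDH3B: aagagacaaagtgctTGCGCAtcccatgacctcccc
IDH3G: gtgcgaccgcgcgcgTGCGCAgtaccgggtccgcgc
The flanking letters and the distance to the start differed between the subunits. Whether NRF1 was bound there was not measured.

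Levels of different genes were compared per kilobase of summed exon length (RPKM). In the libraries labelled siNC the order was IDH2 (38.8 ± 1.63 RPKM), IDH3B (29.3 ± 0.641), IDH3G (12.8 ± 0.421), SLC25A1 (12.7 ± 0.697), IDH3A (9.93 ± 0.469), IDH1 (9.88 ± 0.132), ACO1 (6.12 ± 0.177), CS (6.11 ± 0.104) and ACSS1 (0.313 ± 0.0349 RPKM, SD, n = 3). The neighbours IDH3G and SLC25A1, IDH3A and IDH1, and ACO1 and CS did not differ beyond their spread. In the libraries labelled siFBXL6 IDH1 moved from place 6 to place 8, at 3.39 ± 0.0968 RPKM, below CS (6.53 ± 0.115) and ACO1 (6.51 ± 0.0691) and above ACSS1 (0.772 ± 0.0510). IDH3G moved from place 3 to place 5 (10.5 ± 0.542 RPKM), and its libraries, between 9.98 and 11.1 RPKM, overlapped those of SLC25A1 (10.6 to 12.1) and IDH3A (10.6 to 10.9). IDH2 and IDH3B kept the first places under both labels. With the length of the canonical transcript, an alternative chosen after seeing the data, IDH3B (48.8 ± 1.07 RPKM) was above IDH2 (41.1 ± 1.73) in the libraries labelled siNC, and IDH1 was in place 4 with 20.1 ± 0.270 RPKM, so the order of these genes depended on the length used.

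**Figure D3:**
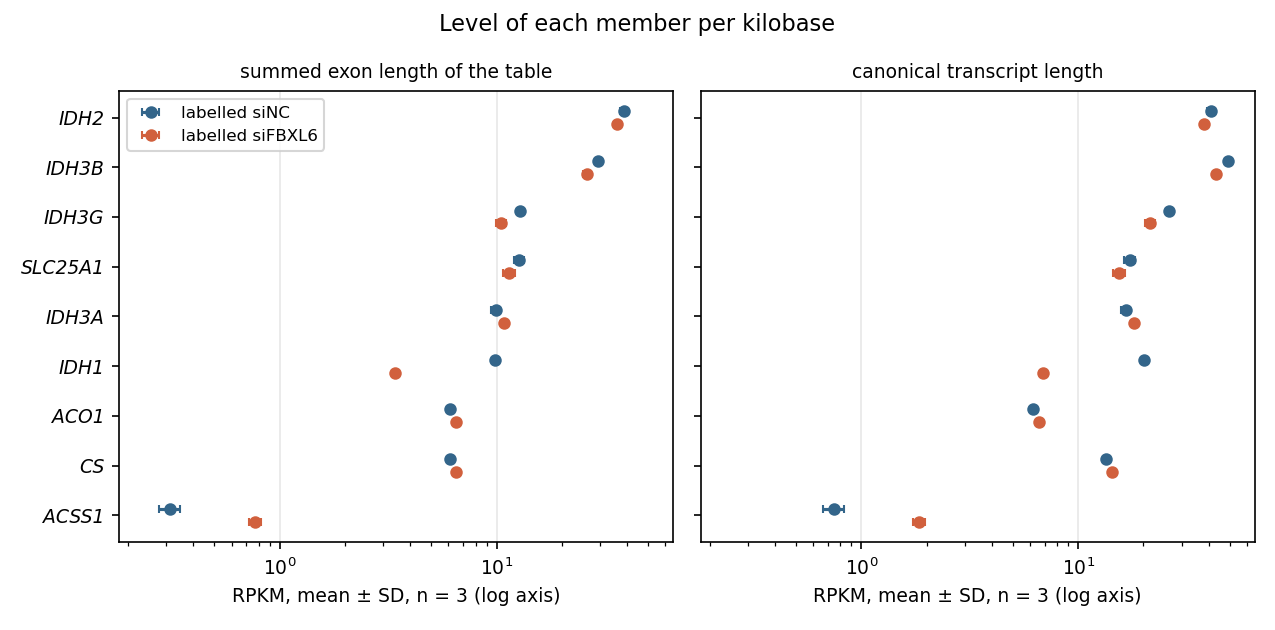
RPKM of each member (x axis, log scale) as mean ± SD (n = 3) in libraries labelled siNC (blue) and siFBXL6 (orange), with the summed exon length of the table at left and the canonical transcript length at right. With either length IDH1 shifts to the left in the libraries labelled siFBXL6, from 9.88 to 3.39 RPKM at left, and ACSS1 is the lowest member.

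Because IDH1 and IDH2 carry out the same reaction in different compartments, their balance was computed within each library. IDH1 made up 19.5%, 20.8% and 20.6% of the summed IDH1 and IDH2 RPKM in the libraries labelled siNC and 8.25%, 8.96% and 8.58% in those labelled siFBXL6. The IDH1 share was lower in each library labelled siFBXL6 than in any labelled siNC, with means of 20.3 ± 0.736% and 8.59 ± 0.354% (SD, n = 3 each). With the canonical transcript length the means were 32.9 ± 1.01% and 15.3 ± 0.584%, higher in level and shifted in the same direction. Of the RPKM of all 5 isocitrate dehydrogenase genes, IDH1 made up 9.80 ± 0.264% and 3.90 ± 0.200%. Within the IDH3 complex, IDH3A made up 19.1 ± 0.537% of the summed RPKM of its 3 genes in the libraries labelled siNC and 22.8 ± 0.352% in those labelled siFBXL6, while IDH3G went from 24.6 ± 0.174% to 22.2 ± 0.587% and IDH3B from 56.3 ± 0.518% to 55.0 ± 0.538%. These shares are of transcripts and say nothing of the subunits in the assembled enzyme.

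Whether the counting used the strand is not given in the sources used here, so genes that share exon bases with a member on the other strand were examined. IDH1-AS1 shares 94 bases, 1.99% of the exon bases of IDH1, and had between 4 and 13 counts in a library, too few to be tested. PIKFYVE, a phosphoinositide kinase gene that starts 193 bases from the outermost start of IDH1 on the other strand, was at 20.4 ± 0.660 and 19.3 ± 0.647 CPM (log2 fold change -0.078, SE 0.052, adjusted p = 0.254). The largest overlap was that of IDH3A with ACSBG1, an acyl-CoA synthetase gene on the other strand, which covers 38.2% of the exon bases of IDH3A. ACSBG1 was at 18.8 ± 1.37 and 20.5 ± 0.343 CPM (log2 fold change 0.13, SE 0.055, adjusted p = 0.0694), a difference in the same direction as that of IDH3A, and without strand the reads of the pair cannot be told apart. Without siNC replicate 2 the log2 fold change of ACSBG1 was 0.080, and without siNC replicate 3 it was 0.18 (adjusted p = 0.0114, in a range of 0.0114 to 0.328 over the alternatives). SSR4 covers 10.2% of the exon bases of IDH3G and had a log2 fold change of 0.035 (SE 0.057, adjusted p = 0.672), which was 0.0097 without siFBXL6 replicate 1 and 0.070 without siFBXL6 replicate 3. CIB2, with 0.688% of IDH3A, had a log2 fold change of 0.031 (SE 0.085, adjusted p = 0.815), and its value was -0.042, 0.16 and -0.014 without siNC replicates 1, 2 and 3. A gene named after its clone, RP11-977G19.10, overlaps CS on the same strand over 3.44% of its exon bases and was at 65.8 ± 0.0887 and 64.6 ± 1.04 CPM (log2 fold change -0.027, SE 0.033, adjusted p = 0.567), and RP11-977G19.11 on the other strand was below 2.5 CPM (log2 fold change -0.19, SE 0.16, adjusted p = 0.371). The former was -0.013 without siFBXL6 replicate 3 and the latter -0.091 without siNC replicate 1. CTD-2315E11.1 and RP4-686C3.7, which start 145 and 133 bases from IDH2 and IDH3B, had at most 2 counts in a library. ACO1, ACSS1 and SLC25A1 had no such neighbour.

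The genes whose profile over the 6 libraries was most like that of IDH1 were sought among the 16193 genes that averaged 1 CPM or more, by the Euclidean distance between log2 CPM values centred on each gene's mean. The nearest was MAP2, a microtubule-associated protein gene (distance 0.11), followed by SLITRK6, a membrane protein gene (0.20), and MPPED2, a metallophosphoesterase gene (0.28). MAP2 fell from 44.3 ± 0.376 to 15.5 ± 0.411 CPM (log2 fold change -1.52), and the spread within each group was small beside that gap. SLITRK6 fell from 12.6 ± 0.471 to 3.94 ± 0.180 CPM (log2 fold change -1.68) and MPPED2 from 87.1 ± 0.979 to 34.8 ± 0.960 CPM (log2 fold change -1.32). These genes were picked for their likeness, which rests on 1 contrast between the same 6 libraries.

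The genes around the members were described with 8 lists of 112 genes, of which 107 were tested. Of these, 60 were called, 35 of them higher under the siFBXL6 label and 25 lower, which is 56.1% beside 40.2% of all genes tested, and 0 of the 107 had a called log2 fold change of at least 1 in size, beside 622 of all 21298 genes tested. Over all called genes of the table the log2 fold change had a median size of 0.28.

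In the rest of the TCA cycle 7 of 15 genes were called, 4 higher and 3 lower, with a median log2 fold change of 0.021. DLST, the E2 subunit of the 2-oxoglutarate dehydrogenase complex that uses the product of IDH3, rose from 77.0 ± 2.39 to 106 ± 2.66 CPM (log2 fold change 0.45, SE 0.033, adjusted p = 1.56e-13). SDHA, the flavoprotein of succinate dehydrogenase, fell by 0.19 on the log2 scale (SE 0.032, adjusted p = 1.29e-05), and SDHC, a membrane anchor of the same complex, rose by 0.11 (SE 0.037, adjusted p = 0.0125). The count of SDHA is uncertain, since 3 rows named as its pseudogenes summed to up to 24.9% of its count in a library. Only 3 genes of this list were called without siNC replicate 2, without siFBXL6 replicate 1 or with DESeq2, and SDHC lost its call without siFBXL6 replicate 2 (adjusted p = 0.0809, in a range of 0.0101 to 0.0809 over the alternatives).

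At the entry of pyruvate 3 of 14 genes were called, 2 higher and 1 lower, with a median of -0.0064. PDK1, a kinase that inhibits pyruvate dehydrogenase, rose from 20.7 ± 0.143 to 25.3 ± 0.980 CPM (log2 fold change 0.29, SE 0.049, adjusted p = 9.21e-06). MPC1, a subunit of the mitochondrial pyruvate carrier, fell from 23.0 ± 0.400 to 18.8 ± 0.563 CPM (log2 fold change -0.30, SE 0.050, adjusted p = 1.17e-05). PDHX, a component of the pyruvate dehydrogenase complex, had a log2 fold change of 0.091 (SE 0.033, adjusted p = 0.0266), and this call was lost under 6 of 12 alternatives, with adjusted p up to 0.128. Without siNC replicate 1, 5 genes of the list were called, 2 higher and 3 lower. With library size alone 4 were called, 1 higher and 3 lower. Without siFBXL6 replicate 3 the split was 1 higher and 2 lower.

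For the use of citrate and acetyl-CoA 12 of 16 genes were tested and 7 were called, 5 higher and 2 lower, with a median of 0.086. ACLY, which splits exported citrate into acetyl-CoA and oxaloacetate, was at 174 ± 2.28 and 179 ± 1.47 CPM (log2 fold change 0.040, SE 0.030, adjusted p = 0.311). Downstream genes moved in both directions. HMGCS1 of sterol synthesis rose from 42.6 ± 1.14 to 54.0 ± 1.24 CPM (log2 fold change 0.34, SE 0.037, adjusted p = 2.79e-09), and SLC33A1, the acetyl-CoA transporter of the endoplasmic reticulum, rose from 17.0 ± 0.675 to 22.0 ± 0.477 CPM (log2 fold change 0.37, SE 0.053, adjusted p = 4.75e-07). FASN, the fatty acid synthase, fell from 128 ± 0.734 to 117 ± 1.90 CPM (log2 fold change -0.14, SE 0.030, adjusted p = 0.000386).

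Of the 8 mitochondrial carriers of TCA intermediates other than SLC25A1, 3 were called, 1 higher and 2 lower, with a median of -0.015. The dicarboxylate carrier SLC25A10 fell by 0.50 on the log2 scale (SE 0.098, adjusted p = 8.64e-05), from 5.96 ± 0.576 to 4.22 ± 0.121 CPM. The glutamate carrier SLC25A22 rose from 3.94 ± 0.511 to 5.36 ± 0.158 CPM (log2 fold change 0.44, SE 0.10, adjusted p = 0.000792). SLC25A12, an aspartate-glutamate carrier, had a log2 fold change of -0.17 (SE 0.049, adjusted p = 0.00556), and leaving out siFBXL6 replicate 1 removed its call (adjusted p = 0.0599, in a range of 0.00202 to 0.0599 over the alternatives).

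Genes of other reactions that make or use 2-oxoglutarate, or that involve 2-hydroxyglutarate, made up a list of 15. In it 11 were called, 7 higher and 4 lower, with a median of 0.17, and a call does not tell supply from use. Of its 8 transaminases 5 were called higher, 2 were called lower and 1 was not called. PSAT1, a serine synthesis enzyme, rose from 36.5 ± 1.23 to 49.3 ± 0.128 CPM (log2 fold change 0.43, SE 0.039, adjusted p = 3.31e-11), and the mitochondrial alanine transaminase GPT2 rose from 42.8 ± 1.69 to 54.0 ± 1.25 CPM (log2 fold change 0.33, SE 0.038, adjusted p = 8.07e-09). BCAT1, the cytosolic branched-chain transaminase, which uses 2-oxoglutarate in its main direction, rose by 0.25 on the log2 scale (SE 0.030, adjusted p = 2.91e-08). Its mitochondrial counterpart BCAT2 fell by 0.31 (SE 0.090, adjusted p = 0.00569) and the aspartate transaminase GOT2 by 0.099 (SE 0.037, adjusted p = 0.0288), a call lost under 5 of 12 alternatives, with adjusted p up to 0.176. GPT, the cytosolic alanine transaminase, was not called (adjusted p = 0.756), and its sign turned without siFBXL6 replicate 2 (log2 fold change 0.17 to -0.15). The median of the list given above was the value of GPT. GOT1, the cytosolic aspartate transaminase, rose by 0.39 (SE 0.053, adjusted p = 2.86e-07), and OAT, the ornithine transaminase, by 0.21 (SE 0.063, adjusted p = 0.00637), the latter call being lost under 2 of 12 alternatives, with adjusted p up to 0.0605. BCAT2, GOT2, GPT, GOT1 and OAT were chosen after their values were seen. A lower value was found for D2HGDH, a dehydrogenase that removes D-2-hydroxyglutarate. It was at 3.61 ± 0.324 and 2.87 ± 0.0990 CPM (log2 fold change -0.33, SE 0.12, adjusted p = 0.0242), and this call was lost under 5 of 12 alternatives, with adjusted p up to 0.0946. In this list 7 genes were called with DESeq2, and likewise without siNC replicate 1, without siNC replicate 2 and without siFBXL6 replicate 3. The split was 6 higher and 1 lower with DESeq2, without siNC replicate 2 and without siFBXL6 replicate 3. It was 5 higher and 2 lower without siNC replicate 1.

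Of 14 other genes of NADPH production, 10 were called, 4 higher and 6 lower, with a median of -0.018. MTHFD2, a mitochondrial folate dehydrogenase, rose from 99.0 ± 2.22 to 122 ± 0.511 CPM (log2 fold change 0.30, SE 0.031, adjusted p = 5.64e-10), and NNT, the transhydrogenase of the inner membrane, rose from 20.7 ± 1.34 to 27.4 ± 0.702 CPM (log2 fold change 0.40, SE 0.051, adjusted p = 5.55e-08). NADK2, the mitochondrial NAD kinase that makes the NADP pool used by IDH2, fell from 17.9 ± 0.259 to 12.8 ± 0.709 CPM (log2 fold change -0.48, SE 0.059, adjusted p = 2.46e-08). The list therefore held changes of both signs beside the lower level of IDH1.

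Among 20 dioxygenases that consume 2-oxoglutarate, 16 were called, 9 higher and 7 lower, with a median of 0.0046. PLOD2, a lysyl hydroxylase of collagen, rose from 79.6 ± 2.04 to 96.9 ± 1.51 CPM (log2 fold change 0.28, SE 0.032, adjusted p = 4.87e-09). Of the 3 TET genes, which encode DNA demethylases, 2 were called lower and 1 higher. TET2 fell from 30.8 ± 0.914 to 24.4 ± 0.609 CPM (log2 fold change -0.34, SE 0.046, adjusted p = 2.00e-07) and TET3 rose from 33.9 ± 1.31 to 40.4 ± 1.44 CPM (log2 fold change 0.25, SE 0.042, adjusted p = 7.10e-06). TET1, chosen after its values were seen, had a log2 fold change of -0.22 (SE 0.083, adjusted p = 0.0331), and its call was lost under 6 of 12 alternatives, with adjusted p up to 0.141.

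The iron regulatory protein system, to which ACO1 belongs, had 9 of 10 genes tested. Of these, 3 were called, all 3 higher, and 6 were not called, a share of 33.3% called beside 40.2% of all genes tested. The log2 fold changes of the list ran from -0.091 to 0.45, with a median of 0.085. TFRC, the transferrin receptor, whose mRNA is stabilized by iron regulatory proteins, rose from 104 ± 2.49 to 137 ± 4.75 CPM (log2 fold change 0.40, SE 0.032, adjusted p = 2.80e-12). EPAS1, whose translation these proteins repress, rose from 107 ± 2.60 to 146 ± 2.96 CPM (log2 fold change 0.45, SE 0.031, adjusted p = 9.24e-14), and CDC42BPA, another transcript with an iron-responsive element, rose from 75.3 ± 4.32 to 94.2 ± 0.694 CPM (log2 fold change 0.32, SE 0.035, adjusted p = 2.19e-09). IREB2, the paralog of ACO1 that acts only as an iron regulatory protein, was at 46.5 ± 1.03 and 49.3 ± 2.43 CPM with overlapping groups (log2 fold change 0.085, SE 0.039, adjusted p = 0.0866), and it was called without siFBXL6 replicate 1 (adjusted p = 0.0227, in a range of 0.0227 to 0.366 over the alternatives). ACO1 and IREB2 thus had small positive differences of similar size.

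**Figure D4:**
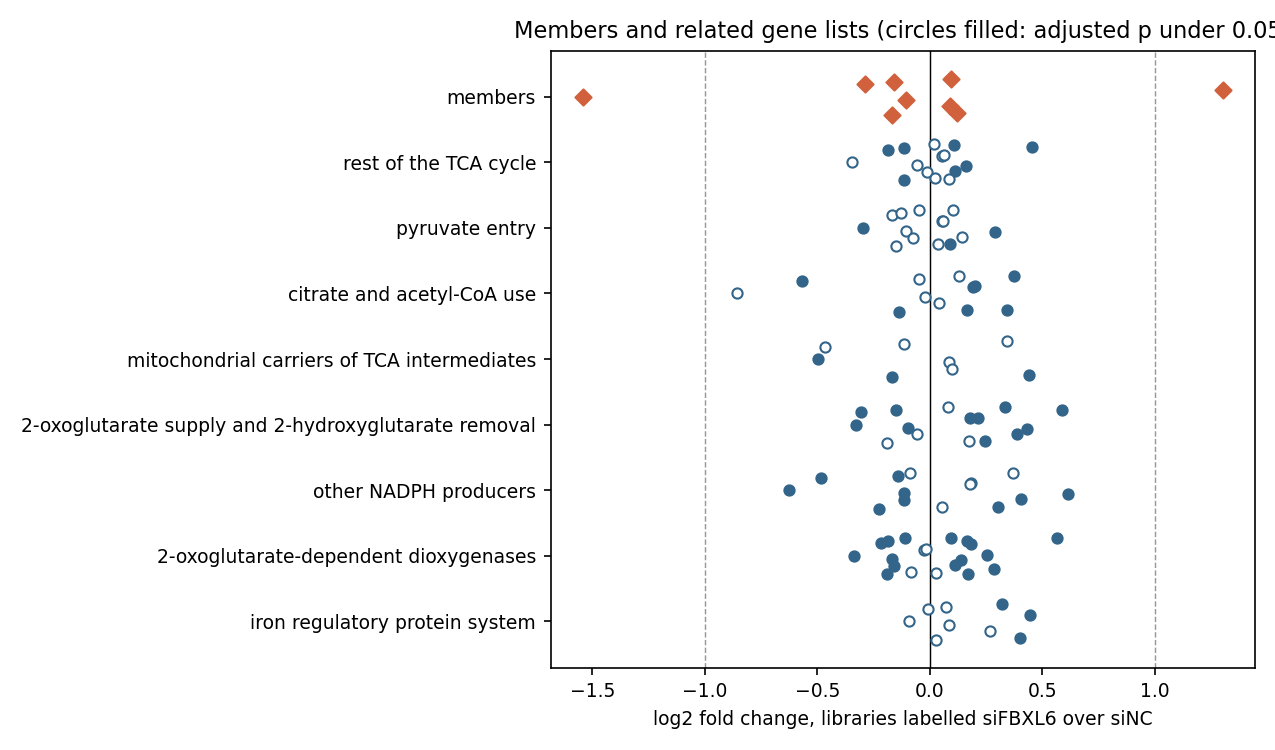
Log2 fold change of libraries labelled siFBXL6 over siNC (x axis) for the 9 members (orange diamonds) and the tested genes of 8 related lists (blue circles, filled where the adjusted p was under 0.05), with dashed lines at -1 and 1. IDH1 and ACSS1 lie outside the dashed lines, and all genes of the lists lie within them. Vertical scatter within a row has no meaning.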

How the data were processed

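Counts per gene for 6 T24 libraries (3 labelled siNC, 3 labelled siFBXL6) were used as the authors deposited them, without normalization. The study's methods name Trimmomatic and HISAT2 and the submitters' processing notes name fastp (0.23.0) and STAR. Both name featureCounts (Subread 1.5.1) and GRCh38. The annotation release, the strand setting and the treatment of reads that match several genes are not given in the sources used here. The deposited table also gives each gene's summed exon length, with no other unit, and it has no rows that name no gene.

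Genes were filtered with filterByExpr at its defaults (21298 of 56303 kept), scaled by TMM, and the label effect was fitted by the quasi-likelihood method of edgeR (version 4.0.16, with limma 3.58.1 under R 4.3.3), with the label as the only term and Benjamini-Hochberg adjustment over all genes tested. A gene was called at an adjusted p under 0.05. SE and 95% intervals come from the same model. CPM and RPKM were computed from the counts with TMM-scaled library sizes. The steps were tested on simulated data.

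Named genes were the members, FBXL6 and ACTB, counterparts of members (IREB2, ACSS2, ACSS3, ACLY and D2HGDH among them), the 3 called genes with the smallest adjusted p in each list, any list gene called with a log2 fold change of at least 1 in size, genes overlapping a member or starting within 1000 bases on the other strand, and the 3 profiles nearest to the member with the largest difference. The members and lists were chosen with earlier results of these data known. Promoters came from RefSeq (GRCh38.p14) and canonical transcript lengths from GENCODE. Alternatives were DESeq2 (1.42.0), DESeq2 size factors in edgeR, library size alone and other filters. DESeq2 was run without filterByExpr and with its own default filter on mean counts. The replicate number as a block and each library left out in turn were also alternatives.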

Additional observations from a re-analysis of the deposited data

How the results depend on the processing

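Of 108 values for the 9 members under 12 alternatives, 0 changed sign, 93 kept their side of the threshold, 13 lost the call (9 of them for CS) and 2 gained it, both for ACO1. The log2 fold change of IDH1 ranged from -1.57 to -1.52 and that of ACSS1 from 1.21 to 1.35. FBXL6 was not called in any of the 12, with log2 fold changes from -0.20 to -0.092 and adjusted p from 0.112 to 0.521. Of 611 values for 51 other named genes, 570 kept side and sign, 31 lost the call, 2 gained it and 8 changed sign, none of those called. ACTB was at -0.022 with library size alone, at -0.00083 without a filter, at -0.0074 and -0.010 without siNC replicates 1 and 2 and at -0.018 without siFBXL6 replicate 1, CIB2 was at -0.042 and -0.014 without siNC replicates 1 and 3, and GPT was at -0.15 without siFBXL6 replicate 2. With 1 library left out in turn ACTB ranged from -0.018 to 0.018, CIB2 from -0.042 to 0.16 and GPT from -0.15 to 0.48. ACSS3 did not pass the filter of 10 counts in every library and had no value there.

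The count of genes called was 8569, 7026 with DESeq2 (6994 shared), and between 7451 and 8298 with 1 library left out. DESeq2 was run on 38192 genes, as was edgeR without a filter (8302 called), against 21298 in the main fit. The DESeq2 alternative thus changed both the method and the genes tested. Of 96 list counts, 87 were within 1.5 times the reported one. The rest of the TCA cycle went from 7 genes to 3 with DESeq2, which was run with its own filter in place of filterByExpr. It went to 4 in edgeR without a filter and to between 3 and 6 with 1 library left out. Pyruvate entry ranged from 2 to 5. The list of 2-oxoglutarate and 2-hydroxyglutarate genes went from 11 to 7 with DESeq2 and to between 7 and 9 with 1 library left out. The causes were not tested. Gene length, added after seeing the data, changed shares per length but not their direction between the groups.

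The replicate number as a replicate block gave 8408 called genes, 8356 of them shared, and CS lost its call (log2 fold change 0.096). Deviations of same-numbered libraries from their group means correlated at -0.036, 0.013 and -0.011 over 16193 genes, so the labels pair no libraries beyond the number. The counts cover 6 libraries of 1 line. FBXL6 had 344 to 414 counts in a library, and the interval of its log2 fold change in the main fit ran from -0.31 to 0.046. Differences inside this interval could not be told apart, while a larger drop of the transcript lies outside it.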

Other observations

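The 4 list genes given here lie outside the naming rule and were chosen after their values were seen, and they are not the only list genes with differences of this size. In folate-linked NADPH production MTHFD2L, a mitochondrial folate dehydrogenase, went from 5.82 ± 0.130 CPM (SD, n = 3) under the siNC label to 8.90 ± 0.486 CPM under the siFBXL6 label (log2 fold change 0.61, SE 0.080, adjusted p = 1.01e-07, edgeR), and ALDH1L1, a cytosolic formyltetrahydrofolate dehydrogenase, had -0.63 (SE 0.090, adjusted p = 6.96e-07). ACACB, the acetyl-CoA carboxylase of the outer mitochondrial membrane, went from 2.98 ± 0.207 to 2.01 ± 0.122 CPM (log2 fold change -0.57, SE 0.13, adjusted p = 0.000819). EGLN3, a prolyl hydroxylase that uses 2-oxoglutarate to mark hypoxia-inducible factors, went from 5.81 ± 1.07 to 8.62 ± 0.216 CPM (log2 fold change 0.57, SE 0.094, adjusted p = 7.68e-06). In each of these 4 genes the groups did not overlap.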
